A study of Rattus norvegicus with 4 samples.

Results

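Ion exchangers, cotransporters and cation pumps set the gradients of sodium, calcium, protons, chloride, bicarbonate and phosphate across the cardiomyocyte membrane. They were described here as a gene group in cultured neonatal rat ventricular cardiomyocytes with and without phenylephrine (PE), an agonist of alpha-1 adrenergic receptors that induces hypertrophic growth of these cells in culture. Members were the protein-coding genes whose symbol begins with Slc4a, Slc8a, Slc9a, Slc12a, Slc20a, Slc24a, Slc26a, Atp1a, Atp1b or Atp2b and a digit, together with Slc8b1 and Fxyd1. Of 66 such genes among 32883 in the count table, 59 had a summed count of at least 15 over all libraries and are described. The name pattern also took in 3 genes that encode partner proteins and not transporters: the scaffolds Slc9a3r1 and Slc9a3r2 and the adaptor Slc4a1ap.

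RNA-seq libraries, strand-specific and depleted of ribosomal RNA, came from ventricular cells of Sprague-Dawley rats at postnatal day 2. The PE group (2 libraries) had 20 µM PE for 24 h, and the other group (2 libraries) is labelled control, as the sample titles give it. Both groups were grown in high-glucose medium with serum after a plating step meant to remove non-cardiomyocytes. No label says that the replicates were separate cultures, so the spread behind each p-value is that between these libraries alone and may be technical.

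The sodium pump exports sodium and imports potassium. Its alpha subunit carries out the transport, its beta subunit is needed to bring the pump to the membrane, and FXYD proteins tune it. The sodium gradient then drives calcium out through the sodium/calcium exchanger, protons out through sodium/proton exchangers, and bicarbonate, chloride or phosphate inward through cotransporters. In cardiac muscle this links sodium handling and pH to the calcium that is left for contraction.

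Total counts were 48075810 and 56948370 in the PE libraries and 45637881 and 51917449 in the control libraries. The members held 0.481% and 0.496% of all counts in the PE libraries and 0.4% and 0.443% in the control libraries. Mitochondrial-genome transcripts took 4.61% and 4.76% of counts with PE, against 6.19% in control replicate 1 and 11.7% in control replicate 2. Of the cardiomyocyte markers, 11 of 12 matched and none was at 0, with a summed level of 17967 to 19321 CPM (counts scaled to a common library size with TMM factors) in PE libraries and 17080 to 17801 CPM in control libraries. Markers of other cells were present too. Summed fibroblast markers (12 of 12 matched) were at 10348 to 10419 CPM with PE and 16930 to 18910 CPM in control, macrophage markers (12 of 12) at 248 to 269.8 and 372 to 417 CPM, endothelial markers (11 of 12) at 175 to 182 and 251 to 255 CPM, and mesothelial markers (11 of 12) at 193.1 to 193.2 and 268 to 316 CPM. Mural and smooth muscle markers (12 of 12), several of which hypertrophic cardiomyocytes also express, were at 5565 to 6480 CPM with PE and 2761 to 4037 CPM in control. Of these 12, only 4 had a positive log2 fold change and 8 a negative one (median -0.28), so the sum does not stand for most of them. Schwann cell and neuron markers (12 of 12) were at 52.9 to 53.9 CPM with PE and 50.6 to 57.8 CPM in control. Erythroid markers (9 of 12, of which 2 were at 0 in every library) summed to 0.678 to 0.98 CPM with PE and 18.9 to 30.9 CPM in control. In bulk RNA, fewer cells of a type and less RNA per cell cannot be told apart, and the part of these marker differences in the changes given next was not tested.

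Of the 59 members, 53 passed the expression filter and were tested with edgeR's quasi-likelihood test on the whole table. With an adjusted p under 0.05 counted as a change, 8 rose with PE, 8 fell and 37 did not pass. That is 30.2% of the tested members, beside 15.7% of all 15257 tested genes. By direction the background shares were 7.39% of genes higher and 8.3% lower. The members' median log2 fold change was 0.03, beside -0.01 for all genes tested, so the group did not move as a whole in one direction, and its members differed from each other. The median absolute log2 fold change was 0.60 in the members and 0.30 in all genes. In 43 members (81.1%) the PE and control libraries did not overlap in CPM, 24 with PE above and 19 with PE below, beside 56.7% of all tested genes (28.5% with PE above and 28.1% with PE below). CPM values are not corrected for transcript length, so levels are not compared between genes, and the read sharing of related isoforms is uncertain because the authors' handling of reads with several matches is not given in the sources used here.

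**Figure D1:**
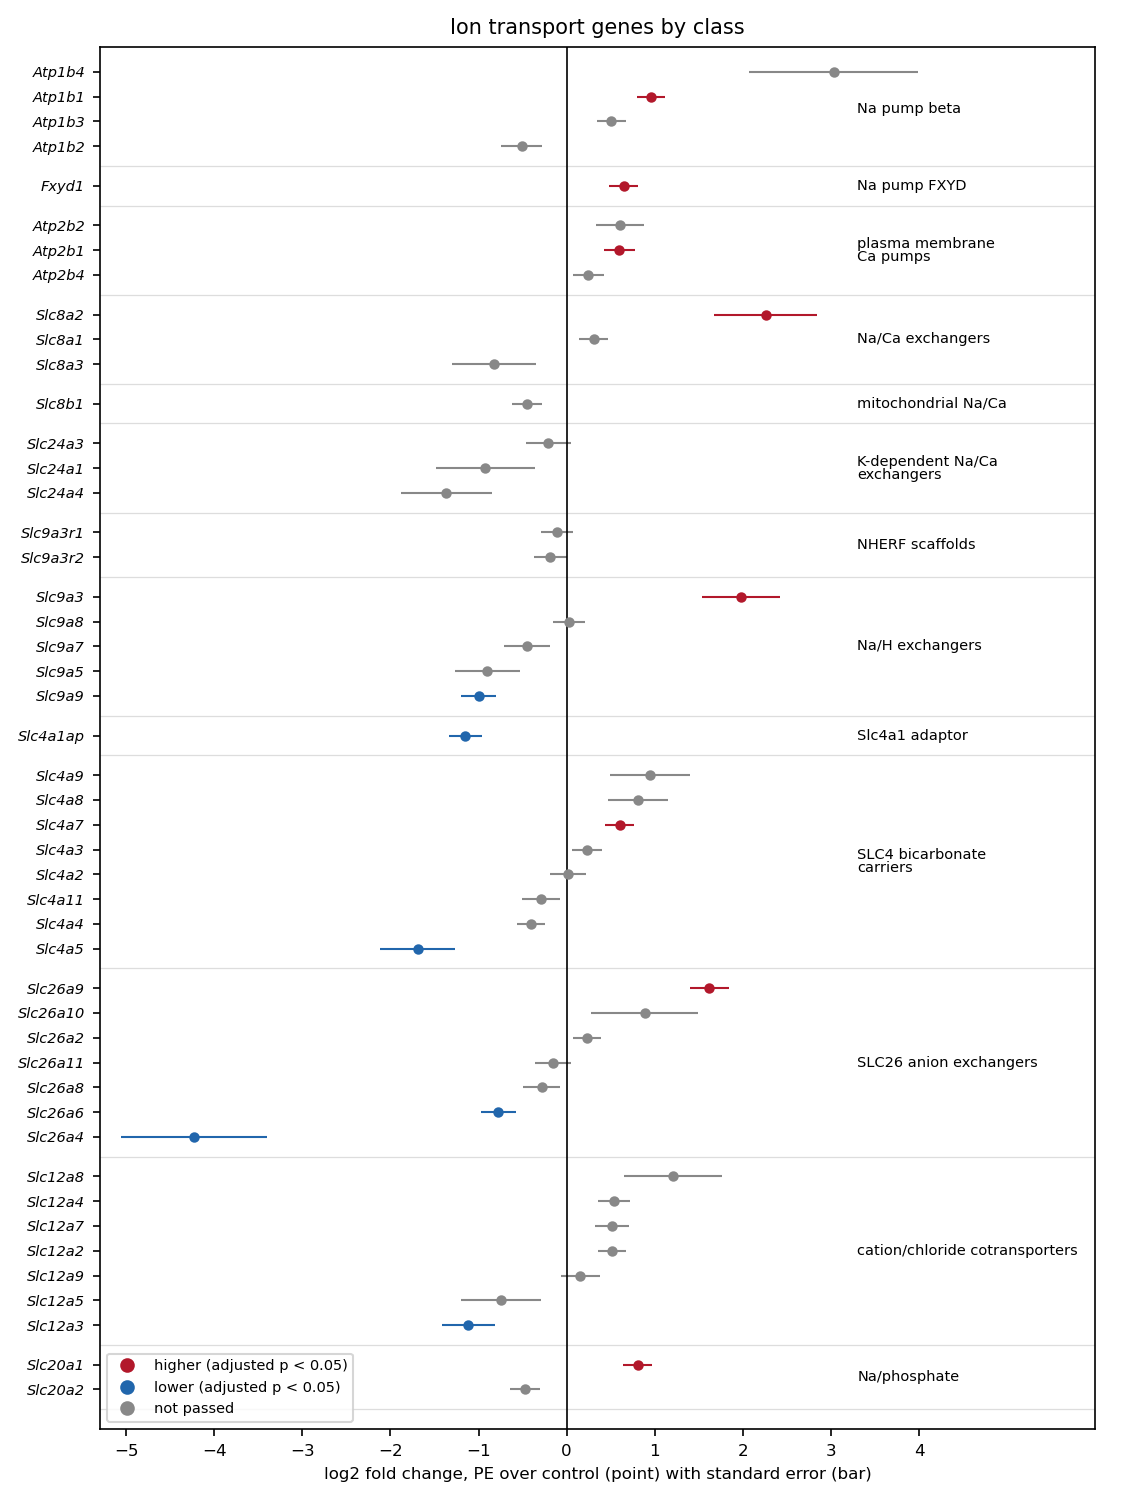
Log2 fold changes (PE over control, horizontal axis) of 47 tested ion transport genes by class, with the standard error as a bar; red genes rose, blue genes fell and grey genes did not pass. Sodium/proton exchangers, SLC4 carriers and SLC26 exchangers hold both rises and falls, and values run from -4.23 for Slc26a4 to 3.03 for Atp1b4, which did not pass.

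Of the sodium pump genes, the beta-1 gene Atp1b1 and the FXYD gene Fxyd1 rose with PE, and the other beta genes did not pass. The alpha isoform gene of testis, Atp1a4, had 6 and 11 counts with PE and 3 and 6 in control, too few to be tested.

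Atp1b1 (ENSRNOG00000002934), the main beta subunit of the heart, had 648 and 619.7 CPM in PE libraries, against 313 and 340.3 CPM in control libraries. The PE libraries were nearly double the controls, at a log2 fold change of 0.96 ± 0.16 (adjusted p = 0.00293), or 1.94-fold higher. Without PE replicate 1 it was at 0.93 and did not pass (adjusted p = 0.0717). Atp1b3 and Atp1b2, the other pump beta subunits, were singled out after their values were seen. Atp1b3 had 221 and 187 CPM with PE and 139 and 148 CPM in control, at 0.51 ± 0.16 (adjusted p = 0.0641). Atp1b2 had 7.48 and 5.99 CPM with PE and 7.88 and 11.3 CPM in control, at -0.51 ± 0.23 (adjusted p = 0.184). Neither passed in the filtered edgeR fit, although neither overlapped between groups. Without the expression filter, edgeR called Atp1b3 (adjusted p = 0.0393) but not Atp1b2 (adjusted p = 0.113). The deposited table of the authors called Atp1b3 as well (adjusted p = 0.0353). Atp1b4, whose product in placental mammals is a muscle protein of the nuclear membrane and no pump subunit, had 13 and 14 counts with PE and 3 and 0 in control. The pooled ratio was 8.64, with an exact 95% counting interval of 2.66 to 44.5, and the test did not pass (adjusted p = 0.0591).

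Fxyd1 (ENSRNOG00000021079) encodes phospholemman, the FXYD protein of the cardiac sodium pump and a target of protein kinases. It had 263 and 292 CPM with PE and 169 and 185 CPM in control. Both PE libraries lay above both controls, and the log2 fold change was 0.65 ± 0.16 (adjusted p = 0.0216). Without PE replicate 1 or 2 it was at 0.73 and 0.58 and did not pass (adjusted p = 0.234 and 0.422).

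Of the sodium/calcium exchangers and calcium pumps of the plasma membrane, Slc8a2 and Atp2b1 rose with PE and the other 4 tested genes did not pass. Slc8a1 (ENSRNOG00000008479), the cardiac sodium/calcium exchanger NCX1, had 1143 and 1213 CPM in PE libraries, against 937 and 967 CPM in control libraries. The groups did not overlap, but the log2 fold change of 0.31 ± 0.16 did not pass (adjusted p = 0.257), and its 95% interval was -0.06 to 0.67. Slc8a2 (ENSRNOG00000001492), an exchanger known mainly from brain, had 27 and 47 counts with PE and 9 and 6 in control, or 0.481 and 0.996 CPM and 0.168 and 0.132 CPM. It rose by 2.26 ± 0.58 on the log2 scale (adjusted p = 0.0257) at this low level, and without PE replicate 2 it was at 1.67 and did not pass (adjusted p = 0.358). Slc8a3, the isoform best known from brain and skeletal muscle, was at -0.82 ± 0.48 on 13 to 35 counts and did not pass.

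Of the plasma membrane calcium pumps, Atp2b1 (ENSRNOG00000004026), the widely expressed PMCA1, had 128 and 124 CPM with PE and 73.4 and 93.1 CPM in control. It rose by 0.60 ± 0.17 on the log2 scale (adjusted p = 0.0412), the weakest of the 16 calls. Leaving out PE replicate 1 or 2 gave 0.58 and 0.63 and ended the call (adjusted p = 0.428 and 0.343), as did upper-quartile factors at 0.57 (adjusted p = 0.0553). Atp2b4 (ENSRNOG00000003031), PMCA4, which binds signalling proteins such as nitric oxide synthase at the cardiac membrane, had 32.6 and 31.7 CPM with PE and 29.8 and 24.4 CPM in control, and did not pass at 0.25 ± 0.17 (adjusted p = 0.403). Atp2b2, an isoform of neurons and hair cells, was at 0.61 ± 0.27 (adjusted p = 0.168).

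The mitochondrial and the potassium-dependent sodium/calcium exchangers gave 0 calls in 4 tested genes in the filtered edgeR fit (2 had an unadjusted p under 0.05, and DESeq2 called 0). Slc8b1 (ENSRNOG00000001383), the mitochondrial sodium/calcium exchanger NCLX, had 24.6 and 26.9 CPM with PE and 36.7 and 33.5 CPM in control. The groups did not overlap, and the log2 fold change of -0.45 ± 0.17 did not pass (adjusted p = 0.103). Of the fits with 1 library left out, it passed in that without control replicate 2 (-0.51, adjusted p = 0.00827) and missed the threshold in the other 3 (adjusted p = 0.0693 to 0.738). The potassium-dependent exchangers of the Slc24 family, which carry calcium out with potassium in retina, neurons and pigment cells, had log2 fold changes of -1.36 to -0.21. Slc24a3 (ENSRNOG00000060687), the most abundant in reads, had 2.94 and 3.05 CPM with PE and 4.02 and 2.87 CPM in control, and these overlapped. Slc24a4, at -1.36, had 36 and 9 counts with PE and 61 and 48 in control. It passed in edgeR without the expression filter (adjusted p = 0.0144) and with replicate number as a block (adjusted p = 0.0366).

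Sodium/proton exchangers move protons out of the cell, or sodium and protons across the membranes of organelles, and those described changed in both directions. Slc9a9 (ENSRNOG00000008554), an exchanger of endosomes, had 5.75 and 6.84 CPM with PE and 12.5 and 12.6 CPM in control. It fell by 1.00 ± 0.20 on the log2 scale (adjusted p = 0.00651), and without PE replicate 1 it was at -0.87 and did not pass (adjusted p = 0.136). Slc9a3 (ENSRNOG00000015159), the exchanger of kidney and gut epithelium, had 72 and 58 counts with PE and 12 and 19 in control, or 1.28 and 1.23 CPM and 0.224 and 0.417 CPM. It rose by 1.98 ± 0.44 (adjusted p = 0.013) and passed without each library in turn, at 1.59 to 2.48. The exchangers Slc9a5, Slc9a7 and Slc9a8 had log2 fold changes of -0.90, -0.45 and 0.03 and did not pass. The scaffolds Slc9a3r1 and Slc9a3r2, which tether Slc9a3 and other membrane proteins, were at -0.11 and -0.18 and overlapped between groups. Slc9a3r2 (ENSRNOG00000002997) had 21.2 and 24.2 CPM with PE and 28.4 and 23.1 CPM in control.

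**Figure D2:**
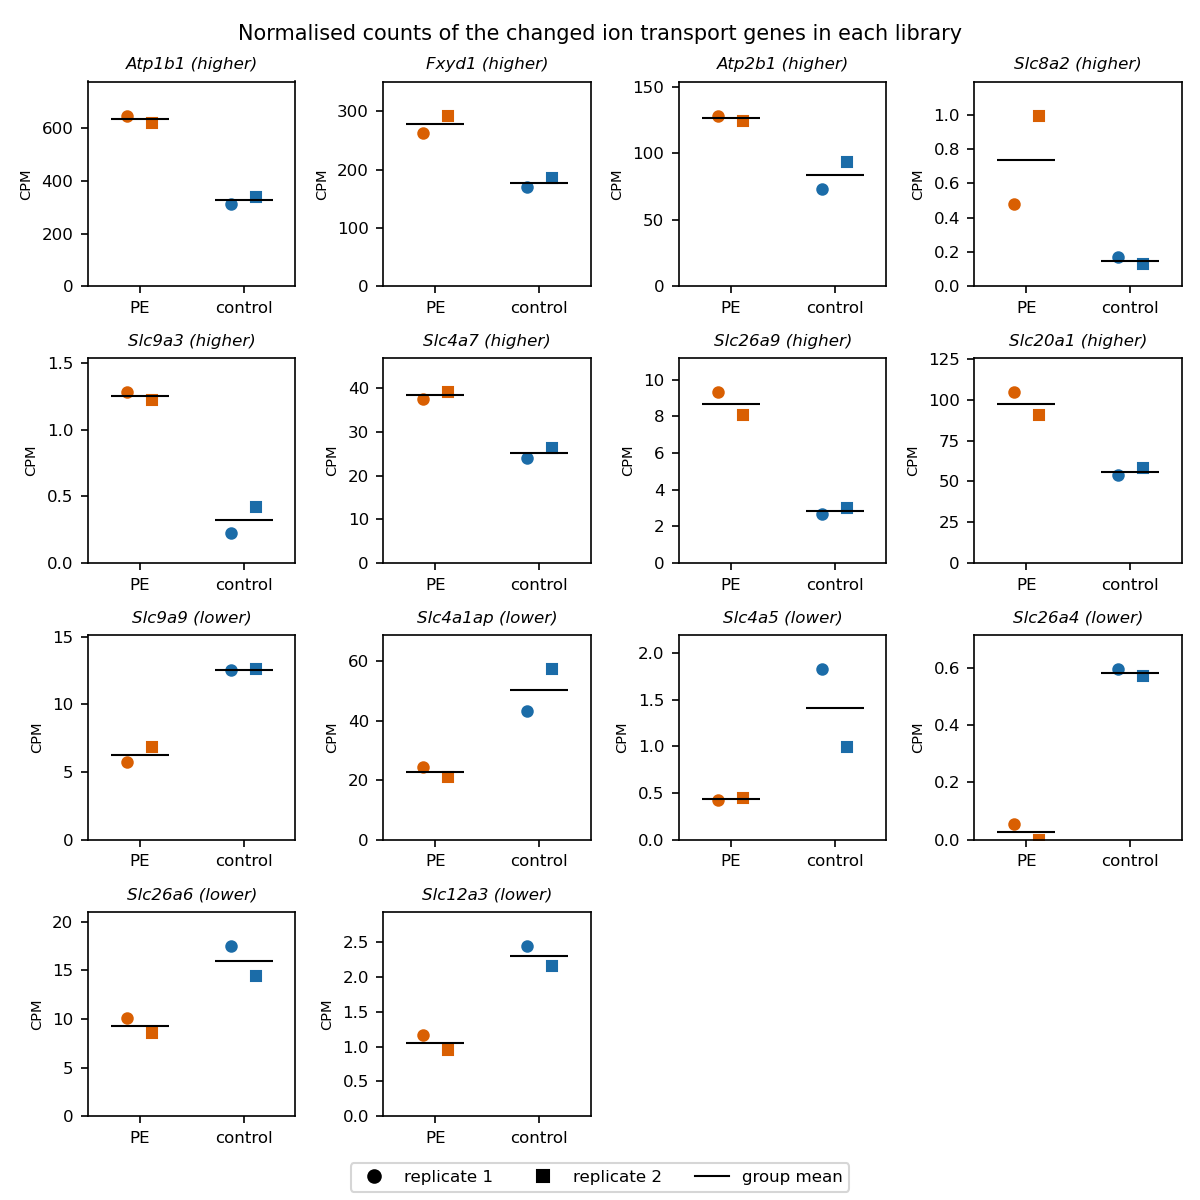
Normalised counts (CPM, vertical axis from 0) of 14 changed ion transport genes in each library, with PE left of control, circles for replicate 1, squares for replicate 2 and a line at the group mean. In every panel the PE and control libraries do not overlap; Slc8a2 in PE cells and Slc4a5 in control cells show the widest gaps between replicates.

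Bicarbonate transporters of the Slc4 family bring bicarbonate into the cell or exchange it for chloride. Of 8 Slc4 carriers tested, grouped by name, 1 rose, 1 fell and 6 did not pass. Slc4a7 (ENSRNOG00000005957), the electroneutral sodium bicarbonate cotransporter NBCn1, had 37.6 and 39.0 CPM with PE and 24.1 and 26.4 CPM in control. It rose by 0.60 ± 0.16 on the log2 scale (adjusted p = 0.0325). Leaving out PE replicate 1 or 2 gave 0.64 and 0.58 and ended the call (adjusted p = 0.339 and 0.4). Slc4a4 (ENSRNOG00000003134), the electrogenic cotransporter NBCe1, was lower in both PE libraries, with 42.7 and 44.8 CPM against 58.2 and 57.9 CPM in control. Its replicates lay close together, yet -0.41 ± 0.16 did not pass (adjusted p = 0.115). The second electrogenic cotransporter, Slc4a5 (ENSRNOG00000010378), had 24 and 21 counts with PE and 98 and 45 in control. It fell by 1.69 ± 0.43 (adjusted p = 0.0235), but leaving out control replicate 1 gave -1.17 (adjusted p = 0.122) and leaving out PE replicate 1 gave -1.66 (adjusted p = 0.0629).

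The Slc4 chloride/bicarbonate exchangers that load acid, Slc4a2 and Slc4a3, did not pass. Slc4a3 (ENSRNOG00000020138), AE3, the isoform of heart and brain, had 113 and 136 CPM with PE and 116 and 96.3 CPM in control, at 0.23 ± 0.18 (adjusted p = 0.437). Slc4a2 (ENSRNOG00000014347), the widely expressed AE2, had 66.0 and 73.8 CPM with PE, inside the control values of 82.3 and 55.8 CPM, at 0.02 ± 0.20 (adjusted p = 0.97). Its sign turned under other scalings, to -0.01 with upper-quartile factors and -0.04 with library sizes alone, so no direction is given. Of the other Slc4 genes, which are not grouped here by direction of acid transport, Slc4a8, Slc4a9 and Slc4a11 were at 0.81, 0.95 and -0.29 and did not pass. Slc4a1ap (ENSRNOG00000004901), whose product kanadaptin is a nuclear protein first described as a partner of the red cell exchanger Slc4a1, fell. It had 24.3 and 21.1 CPM in PE libraries, against 43.2 and 57.4 CPM in control libraries, at -1.15 ± 0.19 (adjusted p = 0.00266), and passed without each library in turn, at -1.33 to -0.93. Slc4a1 itself had 1 count in each library.

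SLC26 proteins exchange chloride, bicarbonate, sulfate, iodide and other anions. Of 7 tested, 1 rose, 2 fell and 4 did not pass. Slc26a9 (ENSRNOG00000029514), a chloride transporter known from airway and stomach epithelium, had 9.30 and 8.07 CPM with PE and 2.65 and 3.01 CPM in control. Both PE libraries stood clearly above, at a log2 fold change of 1.62 ± 0.22 (adjusted p = 0.000732), or 3.08-fold, and it passed without each library in turn, at 1.52 to 1.73. Slc26a6 (ENSRNOG00000020450), a chloride/bicarbonate and oxalate exchanger that has been described in mouse heart, had 10.1 and 8.54 CPM with PE and 17.5 and 14.4 CPM in control. It fell by 0.78 ± 0.20 (adjusted p = 0.0248). With PE replicate 1 or 2 left out it was at -0.90 and -0.66 and missed the threshold (adjusted p = 0.121 and 0.345).

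Slc26a4 (ENSRNOG00000058692), pendrin, the iodide and chloride exchanger of thyroid and inner ear, had 3 and 0 counts in PE libraries, against 32 and 26 in control libraries. The pooled ratio of control to PE was 20.1, with an exact 95% counting interval of 6.56 to 100.5. The fitted change of -4.23 ± 0.83 (adjusted p = 0.00635) depends on the prior count and was at -7.84 without PE replicate 1. Slc26a2 (ENSRNOG00000018082), the sulfate transporter, had 43.8 and 41.9 CPM with PE and 35.1 and 38.0 CPM in control, and did not pass at 0.23 ± 0.16 (adjusted p = 0.397). Slc26a8, Slc26a10 and Slc26a11 lay at -0.28, 0.88 and -0.15 without passing, and Slc26a1, Slc26a3, Slc26a5 and Slc26a7 had between 1 and 20 counts in a library and were not tested.

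Cation/chloride cotransporters set cell chloride and volume: Slc12a2 brings sodium, potassium and chloride in, and Slc12a4, Slc12a5 and Slc12a7 carry potassium and chloride out. Of 8 tested, 1 passed, and it was lower. That gene, Slc12a3 (ENSRNOG00000057072), the thiazide-sensitive cotransporter of the kidney, had 65 and 45 counts with PE and 131 and 98 in control, or 1.16 and 0.953 CPM and 2.44 and 2.15 CPM. It fell by 1.12 ± 0.30 on the log2 scale (adjusted p = 0.03). The call ended with PE replicate 1 or 2 left out, at -1.26 and -0.98 (adjusted p = 0.0837 and 0.21), and in DESeq2 (adjusted p = 0.0511). Slc12a2 (ENSRNOG00000015971), NKCC1, had 44.8 and 43.9 CPM with PE and 30.3 and 31.8 CPM in control, at 0.51 ± 0.16 (adjusted p = 0.055).

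The potassium/chloride exporters Slc12a4, Slc12a5 and Slc12a7 did not pass in the filtered edgeR fit. Without the expression filter, edgeR called Slc12a4 and Slc12a7 (adjusted p = 0.027 and 0.0287) but not Slc12a5 (adjusted p = 0.322). Slc12a7 (ENSRNOG00000016372), KCC4, had 435 and 487 CPM with PE and 374 and 269.7 CPM in control, at 0.52 ± 0.19 (adjusted p = 0.101). Slc12a4 (ENSRNOG00000019651), KCC1, had 144 and 159 CPM with PE and 118 and 90.7 CPM in control, at 0.54 ± 0.18 (adjusted p = 0.0693). Control replicate 1 was the higher control for both genes. Slc12a7 was at 0.78 without it (adjusted p = 1.518e-06) and at 0.30 without control replicate 2 (adjusted p = 0.0929). Slc12a4 was at 0.75 without control replicate 1 (adjusted p = 1.502e-05) and at 0.36 without control replicate 2 (adjusted p = 0.0489). The deposited table of the authors called Slc12a2 and Slc12a4 (adjusted p = 0.0376 and 0.0392) but not Slc12a7 (adjusted p = 0.0622). Slc12a5, the neuronal KCC2, was at -0.74 ± 0.46 and did not pass. Slc12a8 and Slc12a9, whose transport roles are less settled, were at 1.21 and 0.16 and did not pass.

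Of the sodium/phosphate cotransporters, Slc20a1 rose and Slc20a2 did not pass. Slc20a1 (ENSRNOG00000018567), PiT-1, had 105 and 90.8 CPM in PE libraries, against 53.8 and 58.1 CPM in control libraries, and rose by 0.80 ± 0.16 on the log2 scale (adjusted p = 0.00811). Without PE replicate 1 it was at 0.70 and without PE replicate 2 at 0.91, and it passed in neither (adjusted p = 0.256 and 0.0743). Slc20a2 (ENSRNOG00000019490), PiT-2, had 143 and 151 CPM with PE and 223 and 184 CPM in control, at -0.47 ± 0.17, which did not pass (adjusted p = 0.0868). The ratio of Slc20a1 to Slc20a2 counts within a library was 0.732 and 0.602 with PE and 0.241 and 0.316 in control, 2.41-fold higher with PE. This pair was picked after the values were seen and carries no test.

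Some limits of the counting bear on single members. In the RefSeq annotation, whose build differs from the one named for the counts, 25 of the 59 members and 7 of the 16 changed ones overlap another gene; the changed ones are Atp1b1, Slc4a5, Slc9a9, Slc12a3, Slc26a4, Slc26a6 and Slc26a9. The protein-coding partner of Atp1b1, Nme7, was at 11.3 and 11.9 CPM with PE and 9.41 and 11.3 CPM in control, far below Atp1b1 in reads. Celsr3, that of Slc26a6, had 8 and 6 counts with PE and 10 and 9 in control. For Slc4a5, Slc9a9, Slc26a4 and Slc26a9 the partner is a long noncoding RNA. Slc12a3 overlaps an unnamed protein-coding locus, whose reads were not examined, and a microRNA gene. Reads of these partners could not be told apart from the member's own.

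With each library left out in turn, 4 of the 14 changed members shown passed every time: Slc4a1ap, Slc9a3, Slc26a4 and Slc26a9. None of the 14 turned its sign in any of the alternatives. The count of changed members was 8 of 56 (14.3%) without PE replicate 1 and 8 of 55 (14.5%) without PE replicate 2, where the background was 7.64% and 7.98% of genes. It was 26 of 55 (47.3%) without control replicate 1 and 25 of 56 (44.6%) without control replicate 2, where the background was 30.1% in both. In these fits a group of 1 library is assumed to vary like the other group. Median absolute log2 ratios between replicates (CPM plus 0.5) were 0.145 in the PE pair and 0.261 in the control pair over all tested genes, and 0.162 and 0.153 in the same pairs over the tested members. DESeq2 called 19 of 57 members (33.3%), beside 15.9% of all genes. Without the expression filter 22 of 59 members (37.3%) passed, 13 of them higher, beside 15.4% of all genes and 7.03% higher.

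**Figure D3:**
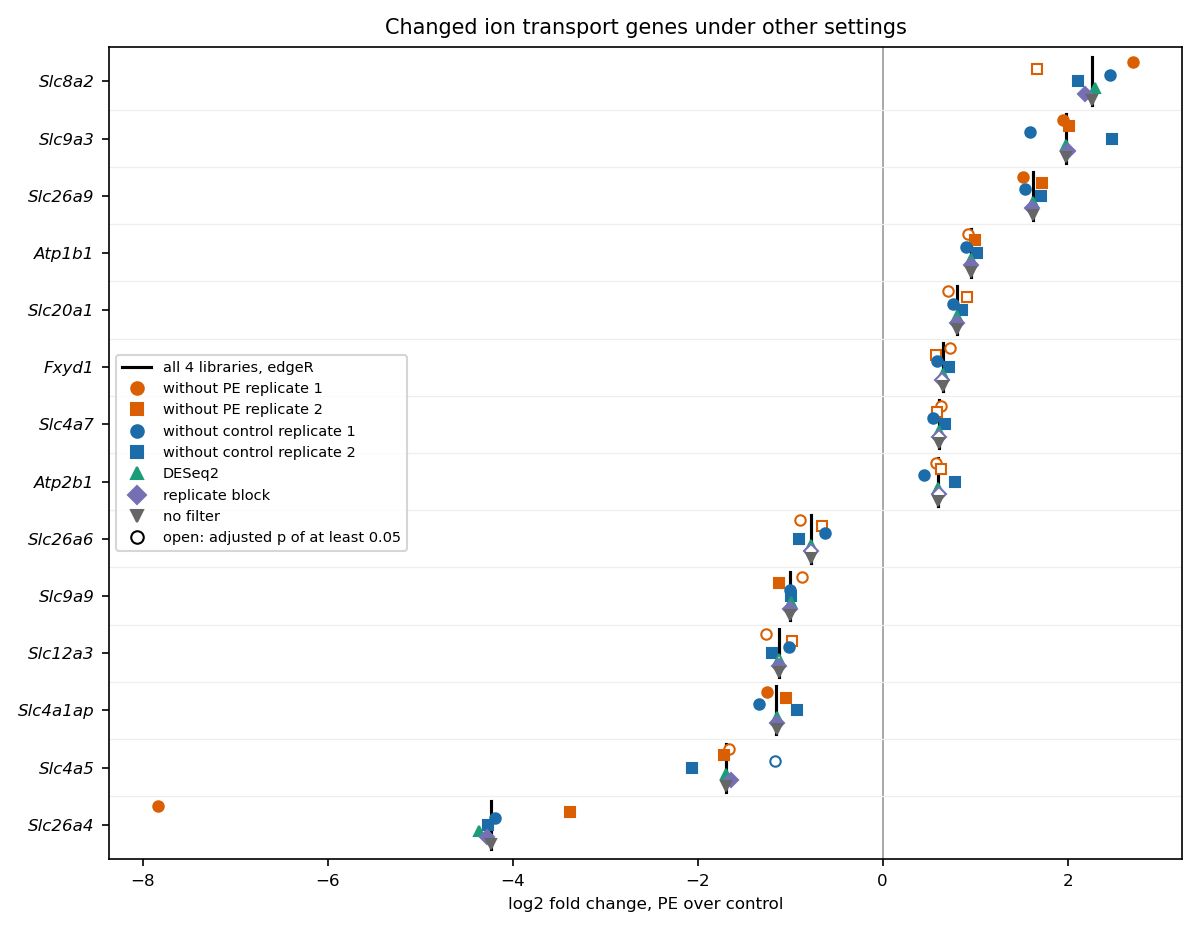
Log2 fold changes (horizontal axis) of 14 changed ion transport genes with all 4 libraries (black line) and under 7 other settings (symbols, open where the adjusted p was at least 0.05). All symbols of a gene stay on the same side of 0, and the open symbols are mostly those of fits without a PE library, such as Fxyd1 at 0.73 and 0.58.

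The deposited table of the authors, from DESeq2 by its columns, gave an adjusted p for 52 of the 59 members. It called 12 higher and 8 lower at an adjusted p under 0.05, where its background was 16.8% of genes (8.13% higher and 8.65% lower), and 16 of its 20 calls were also called by edgeR. The further calls included Atp1b3, Slc12a2 and Slc12a4, each higher, with log2 fold changes of 0.51, 0.52 and 0.54 in the deposited table of the authors.

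Promoters were looked at for letters that the changed members share, since neither the name pattern nor the counts used them. RefSeq holds a promoter for 43 of the 59 members and for 10 of the 16 changed ones, in build GRCr8, of which the 250 bases before the gene start were searched on both strands. The Sp1 box GGGCGG was present in 19 of 43 member promoters, beside 30.5% of all 33469, in 3 of the 5 higher members and in 0 of the 5 lower ones. The CCAAT box (CCAAT) was in 21 of 43 (34% of all promoters), the TATA box (TATAAA) in 4 (12.9%), the E-box (CACGTG) in 6 (5.59%), the AP-1 site (TGACTCA) in 2 (4.05%) and the cyclic AMP response element (TGACGTCA) in 0 (1.59%). Among changed members with a promoter, the CCAAT box and the TATA box each matched 1 higher and 1 lower gene. The E-box matched 1 higher gene and no lower one, and the AP-1 site and cyclic AMP response element matched neither group. No motif was shared by all 5 promoters of either direction, and these splits were not tested. Median GC content was 62.8% in member promoters and 51.2% in all. The members are protein-coding genes, whereas no filter on gene type was applied to all 33469 promoters, so the 2 sets may differ in kind. A match is a description of letters only. The promoters of 3 changed members of different classes are shown because they span that range, from the GC-rich Fxyd1 with an Sp1 box, to Slc26a9 with a CCAAT box and a pair of overlapping TATA matches on opposite strands, to the GC-poor Slc9a9 with none of the 6 motifs. Capitals mark matches of the 6 motifs. Fxyd1 is at chr1:95418581-95418830 on the minus strand, Slc26a9 at chr13:45729833-45730082 on the plus strand and Slc9a9 at chr8:104112285-104112534 on the plus strand.
Fxyd1: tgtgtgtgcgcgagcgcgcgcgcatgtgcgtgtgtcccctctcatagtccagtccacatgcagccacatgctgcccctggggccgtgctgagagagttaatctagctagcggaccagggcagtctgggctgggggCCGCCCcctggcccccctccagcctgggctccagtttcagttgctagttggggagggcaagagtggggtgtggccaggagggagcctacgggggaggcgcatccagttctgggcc
Slc26a9: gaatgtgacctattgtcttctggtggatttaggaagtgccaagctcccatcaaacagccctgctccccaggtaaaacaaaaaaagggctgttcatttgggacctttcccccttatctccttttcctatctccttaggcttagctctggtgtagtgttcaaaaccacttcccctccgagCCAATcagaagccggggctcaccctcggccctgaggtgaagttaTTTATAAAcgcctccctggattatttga
Slc9a9: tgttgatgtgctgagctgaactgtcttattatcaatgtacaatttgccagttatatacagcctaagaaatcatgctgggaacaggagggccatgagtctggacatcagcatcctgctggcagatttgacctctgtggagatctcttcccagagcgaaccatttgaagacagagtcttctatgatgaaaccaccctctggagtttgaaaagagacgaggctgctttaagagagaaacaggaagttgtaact

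Genes that work with these carriers were read from 6 lists. Of all tested genes, 15.7% were called (7.39% higher and 8.3% lower). The called share was 20.8% of transport regulators, 23.1% of other cation pumps and 18.2% of mitochondrial calcium genes. It was 50% of the 4 other FXYD genes, 60% of carbonic anhydrases and 0% of vacuolar pump subunits. Proteins that regulate transporters gave 2 higher and 3 lower of 24 tested, with a median log2 fold change of 0.02, beside -0.01 for all genes. Msn, moesin, which with ezrin anchors membrane proteins to actin, had 1174 and 1214 CPM with PE and 508 and 492 CPM in control, and rose by 1.26 ± 0.16 on the log2 scale (adjusted p = 0.000642). Wnk2, a kinase of the WNK pathway, which phosphorylates the Slc12 cotransporters, fell by 1.23 ± 0.18, with 38.5 and 49.7 CPM with PE and 111 and 96.4 CPM in control. Wnk1, another kinase of that pathway, went the other way and was called higher. It was at 0.56 in DESeq2 (adjusted p = 0.01045), whereas the edgeR adjusted p of the called regulators ran up to 0.0478. Wnk1 lay at 0.51 to 0.60 with each library left out, and its call ended without PE replicate 1 or 2. Stk39, the kinase SPAK that acts directly on Slc12a2, fell by 0.63 ± 0.16, with 47.2 and 44.2 CPM with PE and 66.6 and 75.4 CPM in control. Tesc, tescalcin, a calcium-binding protein, fell by 0.93 ± 0.18, with 47.8 and 48.9 CPM with PE and 105 and 78.6 CPM in control. Stk39 and Tesc did not pass without PE replicate 1 or 2 (adjusted p up to 0.446 and 0.116). Of the other FXYD genes, 1 rose and 1 fell of 4 tested (median 0.12): Fxyd5, dysadherin, was at 22.4 and 24.5 CPM with PE and 9.60 and 12.4 CPM in control, a rise of 1.09 ± 0.20, and Fxyd2, best known from kidney, was at 28.5 and 30.8 CPM with PE and 53.5 and 52.3 CPM in control, a fall of 0.84 ± 0.16 that did not pass without PE replicate 1 or 2 (adjusted p up to 0.218).

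Carbonic anhydrases, which make bicarbonate and protons for the Slc4 and Slc9 carriers, had 3 higher and 3 lower of 10 tested, a median of 0.24. Car8, a member without the enzyme activity that binds the inositol trisphosphate receptor, had 28.5 and 24.0 CPM in PE libraries, against 4.92 and 6.43 CPM in control libraries, and rose by 2.21 ± 0.21 (adjusted p = 0.000111). Car12, a membrane-bound enzyme, rose by 1.84 ± 0.25, with 5.06 and 5.34 CPM with PE and 1.66 and 1.23 CPM in control. Car4, another membrane-bound one, had 45 and 25 counts with PE and 7 and 4 in control and rose by 2.57 ± 0.58, a call that ended with PE replicate 1 left out (adjusted p = 0.168). Car3, a muscle and fat isoform, fell by 1.96 ± 0.35 on few reads, with 37 and 23 counts with PE and 104 and 117 in control.

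Other cation pumps had 2 higher and 1 lower of 13 tested (median 0.23). Atp2a2, the pump that refills the sarcoplasmic reticulum, fell by 0.99 ± 0.18, with 2336 and 2374 CPM with PE and 4927 and 4449 CPM in control, and missed the threshold with PE replicate 1 left out (adjusted p = 0.0599). Atp12a, the non-gastric proton/potassium pump, had 19 and 29 counts with PE and 0 and 2 in control, a pooled ratio of 23.0 with an exact 95% counting interval of 6.04 to 196 (adjusted p = 0.0112; adjusted p = 0.0534 without PE replicate 2). Atp13a3, a polyamine transporter of endosomes, rose by 0.98 ± 0.19, with 33.6 and 31.7 CPM with PE and 14.3 and 18.7 CPM in control, and lost its call with PE replicate 1 left out (adjusted p = 0.0587). Of 11 genes of mitochondrial calcium transport, 1 rose and 1 fell (median 0.06). Tmem65, an inner membrane protein that has been tied to Slc8b1, rose by 0.72 ± 0.17, with 35.9 and 36.7 CPM with PE and 20.5 and 23.5 CPM in control, whereas Slc8b1 did not pass. Letm2 fell by 0.77 ± 0.21, with 5.86 and 6.12 CPM with PE and 8.93 and 11.5 CPM in control. Neither passed without PE replicate 1 or 2 (adjusted p up to 0.225 and 0.272). None of 21 subunits of the vacuolar proton pump, which acidifies compartments such as the endosomes that hold Slc9a9, passed in edgeR (1 had an unadjusted p under 0.05, and DESeq2 called 0), with a median of 0.12. Its most abundant members in reads were Atp6v0c at -0.06 ± 0.17 and Atp6v0a1 at 0.22 ± 0.17.

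**Figure D4:**
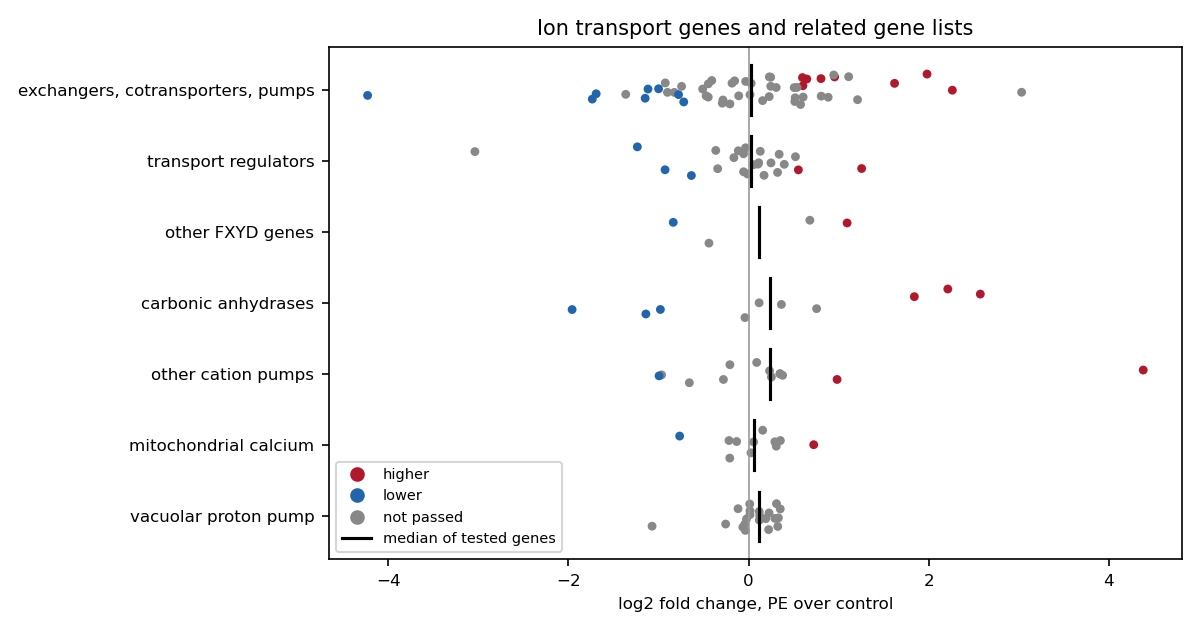
Log2 fold changes (horizontal axis, PE over control) of the tested ion transport genes in the top row and of 6 lists of related genes beneath it, with red for higher, blue for lower, grey for not passed and a black line at each median. Medians lie between 0.02 and 0.24, and carbonic anhydrases show 3 higher and 3 lower of 10 tested, while no subunit of the vacuolar proton pump is coloured. Of all tested genes, 15.7% were called.

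Members below the counting limit were Slc12a1, Slc24a2 and Slc9a4, with no read in any library, and Atp2b3, Slc4a1, Slc4a10 and Slc9a2, with summed counts under 15. Slc9a2, an epithelial exchanger, had 4 and 5 counts with PE and 0 and 0 in control. Of the described members, the ones nearest the limit were Slc26a7 and Slc24a5, with 6 and 2 counts and 9 and 5 counts with PE, against 6 and 4 counts and 4 and 1 counts in control.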

How the data were processed

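Strand-specific RNA-seq of 2 PE and 2 control libraries was used as the authors' deposited raw counts per Ensembl gene. Cutadapt 2.0, STAR 2.4.2a, featureCounts 1.6.4 and the build Rnor_6.0 are named per the submitters' processing notes; order, parameters, annotation release, strand setting and the handling of multi-mapping reads are not given in those notes. Groups follow the sample titles, because the treatment note names PE for all samples. Symbols and gene types came from the second deposited table, which holds, per the file headers, the authors' mean signal per gene, log2 fold change and its error, a score (the Wald statistic), p-values and adjusted p-values.

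All genes were fitted together with edgeR 4.0.16 (limma 3.58.1, R 4.3.3): TMM factors, the default expression filter (minimum count 10, minimum total 15), a quasi-likelihood F test of PE over control and Benjamini-Hochberg adjustment over 15257 tested genes, with 0.05 as the threshold. Errors of log2 fold changes are standard errors, and counting intervals cover counting error only. Replicates differed beyond sampling noise (chi-square over its degrees of freedom: 19.8 for PE, 133 for control), so each was counted as a library of its own. In a simulation of 15034 genes, changes of 1.5-fold were found in 4% of 50 genes, 2-fold in 56% and 4-fold in 88%. The simulation changed 50 genes at each size, a far smaller share than the 15.7% called in the data. With fewer changed genes the adjustment is stricter, so these shares are not the sensitivity of the fit to the data. Other settings were DESeq2 1.42.0, other scalings and filters, a replicate block, each library left out and mitochondrial-genome genes left out.

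The members and gene lists were chosen with earlier results of these data known. Values per library are given for each changed member, for the most abundant of each class and for genes fixed by name. Up to 4 changed genes are named of each related list, and Wnk1 is named as a further one. Other members that are named were chosen after their values were seen. Some members and related genes are not reported here; they stay in the fits, the counts over all members and the medians.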

Additional observations from a re-analysis of the deposited data

How the results depend on the processing

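Direction and call of the 16 changed members were kept with DESeq2's size factors, library sizes alone, no filter and mitochondrial-genome genes left out; upper-quartile factors ended the call of Atp2b1 and DESeq2 that of Slc12a3, and a filter of at least 1 CPM in 2 libraries left 3 of them untested (Slc4a5, Slc8a2 and Slc26a4). Without a filter 13 members were higher, by 5 more than the 8 of the filtered fit, out of 22 changed of 59 (15.4% of all genes). DESeq2 called 19 of 57 members (15.9% of all genes). Leaving out 1 library gave 1205 to 4755 changed genes (604 to 2398 higher, 601 to 2389 lower), 8 to 26 changed members (3 to 16 higher, 4 to 12 lower) and 9 to 31 changed genes of the related lists (5 to 19 higher, 4 to 14 lower). Some members far from the threshold changed sign. With 1 library left out, Slc24a3 from -0.425 to 0.0649 (positive without control replicate 1) and Slc4a2 from -0.23 to 0.329 (negative without PE replicate 2 or control replicate 2). Slc4a2 was also at -0.00687 with upper-quartile factors and -0.0352 with library sizes alone; the cause was not tested.

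The labels do not say whether replicate numbers pair the samples. Deviations from the group mean of same-numbered libraries correlated at -0.452 across 15257 genes. With 2 libraries per group this is a single contrast, so it cannot show whether the cultures were paired. With the replicate block 14 members and 1964 genes (12.9%) were called, 11 of the 14 also without it. The block ended 5 calls of the main fit, among them Fxyd1, Atp2b1, Slc4a7 and Slc26a6 (edgeR adjusted p = 0.0981, 0.14, 0.152 and 0.0519). Crossing the numbers, chosen after seeing the data, gave 4677 changed genes (2270 higher, 2407 lower; 30.7%), 28 members (15 higher, 13 lower) and 28 genes of the related lists (14 higher, 14 lower). Depth sets wide counting intervals for members with few reads, such as 6.56 to 100.5 for the pooled ratio of Slc26a4 (control over PE) and 2.66 to 44.5 for that of Atp1b4 (PE over control).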
